A study of Mus musculus with 14 samples.

Results

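The genes described here are 10 members of the regulated secretory pathway: the granins Chga, Chgb, Scg2, Scg3 and Vgf, the convertase partner Scg5 and the convertase inhibitor Pcsk1n, and the processing enzymes Pcsk1, Pcsk2 and Cpe. They were chosen by symbol, as the rows of the count table whose mouse Ensembl identifier carries one of these names in GENCODE M21, and they make up 10 of the 43346 genes in the table. The set was selected on these same libraries, with earlier results for the comparisons below in view, so its levels and fold changes are a description and not independent evidence. All 10 genes passed the filter on low counts that left 18676 genes for testing.

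Neuropeptides and hormones are made as larger precursors, packed into dense core vesicles and cut inside them. Granins are acidic cargo proteins that help these vesicles form, the convertases encoded by Pcsk1 and Pcsk2 cut the precursors at paired basic residues, and carboxypeptidase E, the product of Cpe, trims the basic residues that remain. In the hippocampus, granule cells of the dentate gyrus are rich in granins and dense core vesicles, and seizures are known to change the expression of several granin and peptide genes in them. Astrocytes also express Cpe and Scg3.

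The RNA came from live GFP-positive cells sorted from the hippocampus of C57BL/6 wild-type mice at day 14, with 800 to 1000 cells per library and cDNA made by SMART-Seq v4, a full-length amplification for small inputs. Every animal group received clozapine-N-oxide (CNO), the ligand of the designer receptor (DREADD). CAG-GFP Sham (3 libraries) carried GFP under the CAG promoter and had no seizures, CAG-GFP Pilo (4 libraries) carried the same construct and had seizures after pilocarpine at 300 mg/kg, DREADD Sham (4 libraries) carried the DREADD without seizures, and DREADD Pilo (3 libraries) carried the DREADD with pilocarpine and is labelled as silenced. The submitters call the cells adult-born granule cells. The vector, the cell types its promoter reaches, the age of the mice and whether each library is a separate animal are not known from the labels, and the spread between libraries may be partly technical.

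Total counts ran from 10613291 to 38614639 per library. The library names fall into 2 styles, called set 1 and set 2 here, which the labels do not describe as batches. Set 1 (CAG-GFP Sham 1 to 3, CAG-GFP Pilo 3 and 4, DREADD Sham 1 and 2) had 0.117% to 0.2% of its counts in pseudogenes and set 2 (CAG-GFP Pilo 1 and 2, DREADD Sham 3 and 4, DREADD Pilo 1 to 3) had 4.33% to 8.12%, and CAG-GFP Sham and DREADD Pilo never met in 1 set. The labelled cell type was weakly represented in CAG-GFP Sham and in DREADD Pilo. In CAG-GFP Sham the 14 astrocyte markers summed to 28700 to 30200 CPM (counts scaled to a common library size with TMM factors). The 15 mature granule cell markers summed to 204 to 219 CPM there, with 4 or 5 at 0 in each library. The granule cell markers summed to 226 to 1350 CPM in the other 11 libraries, and to 226 to 312 CPM in DREADD Pilo. CAG-GFP Pilo 4, DREADD Sham 3 and 4 and DREADD Pilo 3 also had 4 or 5 of them at 0. Prox1, the transcription factor that defines granule cells, was at 0 in CAG-GFP Pilo 4 and DREADD Pilo 3. DREADD Pilo 3 also stood apart by 162000 CPM of ependymal and choroid plexus markers and 86.2 CPM of pan-neuronal markers, the latter the lowest of all libraries, and 25.8% of its counts were mitochondrial, against 2.06% to 13.9% in the others. CAG-GFP Pilo 4 had 9372 genes detected, against 14512 to 20863 in the other libraries. In such bulk RNA, fewer cells of a type and less RNA per cell cannot be told apart.

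The promoters are shown first because most of these genes carry a short motif. The cyclic AMP response element (CRE), bound by CREB-family factors, has been described in granin and convertase promoters. With that known beforehand, its frequency in these genes is a description and is not independent of their choice. RefSeq windows on GRCm38.p6, from 250 bases before to 50 bases after the annotated start, were held for 8 of the 10 genes, with none for Cpe and Vgf. The full CRE, TGACGTCA, which reads alike on both strands, stood in 3 of the 8 windows (Scg2, Chgb and Pcsk1), against 1.79% of 32851 windows in the RefSeq table. Its half-site TGACG, searched on both strands and counted inside a full CRE as well, stood in 7 of 8 windows, Pcsk1n being without it, against 20.8% of all windows. The windows of the RefSeq table were not matched to those of the 8 genes for base composition. The match is a description of letters, not a measured binding site. The 3 windows with a full CRE and the Chga window are printed 5′ to 3′ on the gene's strand, with matches to the CRE, its half-site or TATAAA in capitals.
Scg2, chr1:79439977-79440276, minus strand: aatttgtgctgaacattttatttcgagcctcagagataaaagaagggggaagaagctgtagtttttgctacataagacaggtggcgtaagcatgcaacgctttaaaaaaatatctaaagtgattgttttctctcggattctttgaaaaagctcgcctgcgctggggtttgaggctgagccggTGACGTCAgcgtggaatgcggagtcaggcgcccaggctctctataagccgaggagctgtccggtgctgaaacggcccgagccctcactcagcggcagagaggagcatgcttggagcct
Chgb, chr2:132781392-132781691, plus strand: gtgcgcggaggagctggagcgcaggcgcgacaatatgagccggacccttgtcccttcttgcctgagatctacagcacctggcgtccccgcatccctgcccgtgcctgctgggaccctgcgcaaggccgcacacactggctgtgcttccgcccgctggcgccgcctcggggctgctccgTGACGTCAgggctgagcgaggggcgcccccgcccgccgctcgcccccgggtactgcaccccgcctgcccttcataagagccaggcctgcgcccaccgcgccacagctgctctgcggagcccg
Pcsk1, chr13:75089607-75089906, plus strand: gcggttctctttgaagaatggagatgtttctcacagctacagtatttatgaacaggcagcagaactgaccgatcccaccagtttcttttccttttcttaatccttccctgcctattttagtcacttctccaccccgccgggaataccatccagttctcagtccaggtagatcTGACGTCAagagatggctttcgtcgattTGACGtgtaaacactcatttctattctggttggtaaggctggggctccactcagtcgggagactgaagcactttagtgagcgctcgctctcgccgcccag
Chga, chr12:102554691-102554990, plus strand: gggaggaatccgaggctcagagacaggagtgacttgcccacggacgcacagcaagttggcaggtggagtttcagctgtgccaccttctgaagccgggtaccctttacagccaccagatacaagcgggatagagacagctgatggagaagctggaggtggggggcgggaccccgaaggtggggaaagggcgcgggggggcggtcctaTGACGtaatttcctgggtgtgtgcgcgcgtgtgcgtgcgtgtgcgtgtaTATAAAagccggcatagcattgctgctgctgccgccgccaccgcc

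The full CRE began 68 bases before the RefSeq start in Scg2, 72 before it in Chgb and 78 before it in Pcsk1. Pcsk1 held a further half-site 50 bases before its RefSeq start. The GENCODE start lies at -94 in Scg2 and at -364 in Chgb relative to the RefSeq start (negative is upstream). The full CRE of both genes therefore lies after the GENCODE start. In Pcsk1 the GENCODE start is at -31, and the full CRE and further half-site lie before both starts. In Chga a half-site alone began 44 bases before the RefSeq start, and TATAAA, searched on the plus strand and present in 8.32% of all windows, began 6 bases after it. The GENCODE start of Chga lies 28 bases downstream of the RefSeq start, so both matches lie before the GENCODE start. Scg3 had a half-site 30 bases and Pcsk2 a half-site 34 bases before the RefSeq start, and Scg5 had 3 half-sites, 1 before and 2 after it.

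**Figure D1:**
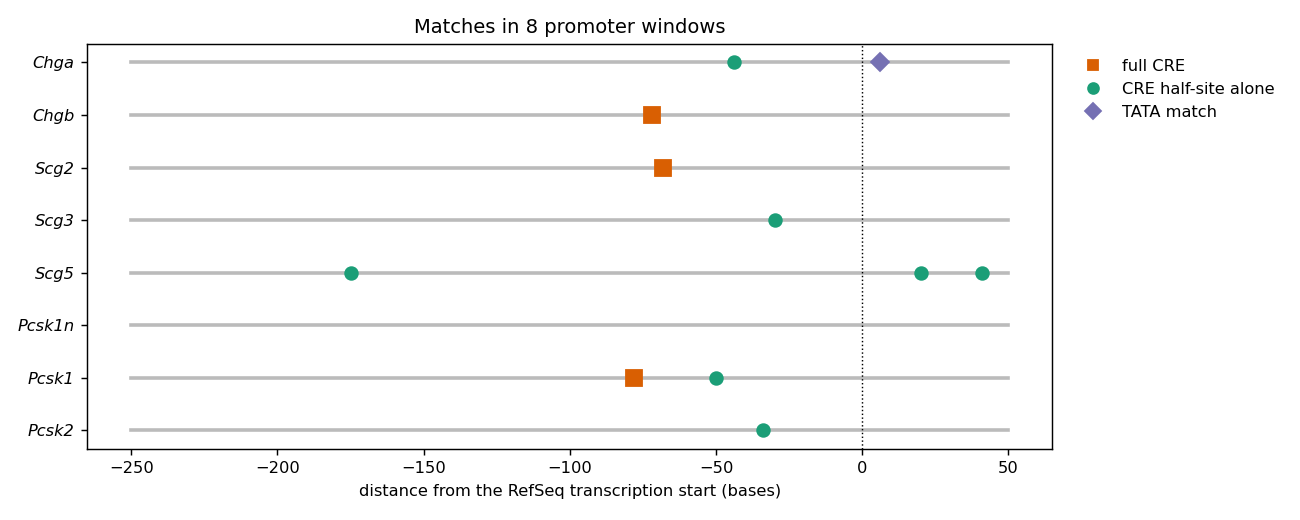
Matches to the full CRE (square), the CRE half-site alone (circle) and TATAAA (diamond) in the 8 RefSeq promoter windows, with distance from the RefSeq transcription start in bases on the horizontal axis and 1 line per gene. The 3 full CREs begin 68, 72 and 78 bases before the RefSeq start, and the Pcsk1n line carries no match.

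Levels were compared between genes as CPM per kilobase of annotated exon. On this scale Cpe was the highest of the 10 genes in 11 libraries and Scg5 in the other 3. In CAG-GFP Sham, Cpe stood at 6820 ± 323 CPM per kilobase (SD, n = 3), Scg3 at 1080 ± 5.7 and Scg5 at 236 ± 36.9, each apart from the next by far more than its spread. Chgb (41.1 ± 11.4) and Scg2 (37.1 ± 8.49) came next and were within their spread of each other, and Pcsk1n, Chga and Pcsk2 lay between 12.4 and 2.93, with Vgf and Pcsk1 under 1. In CAG-GFP Pilo the means ran from Cpe (446 ± 304, SD, n = 4) and Scg5 (268 ± 117) through Scg2 (155 ± 55.5), Chgb (69.2 ± 42.1), Scg3 (48.7 ± 26.9) and Pcsk1n (42.9 ± 22.4) to Chga, Pcsk2, Vgf and Pcsk1, and neighbours in that order overlapped. Scg3 thus followed Cpe in CAG-GFP Sham and stood below Scg5, Scg2 and Chgb by mean after pilocarpine.

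Cpe and Scg3 together made 95.8% to 96.0% of the summed CPM per kilobase of the 10 genes in the 3 CAG-GFP Sham libraries and 25.2% to 73.4% in the other 11. The share needs no scaling between libraries. Cpe alone held 1.23% to 1.28% of the counts in tested genes in CAG-GFP Sham, where it ranked 6 to 8 among all genes, and 0.0413% to 0.189% elsewhere.

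**Figure D2:**
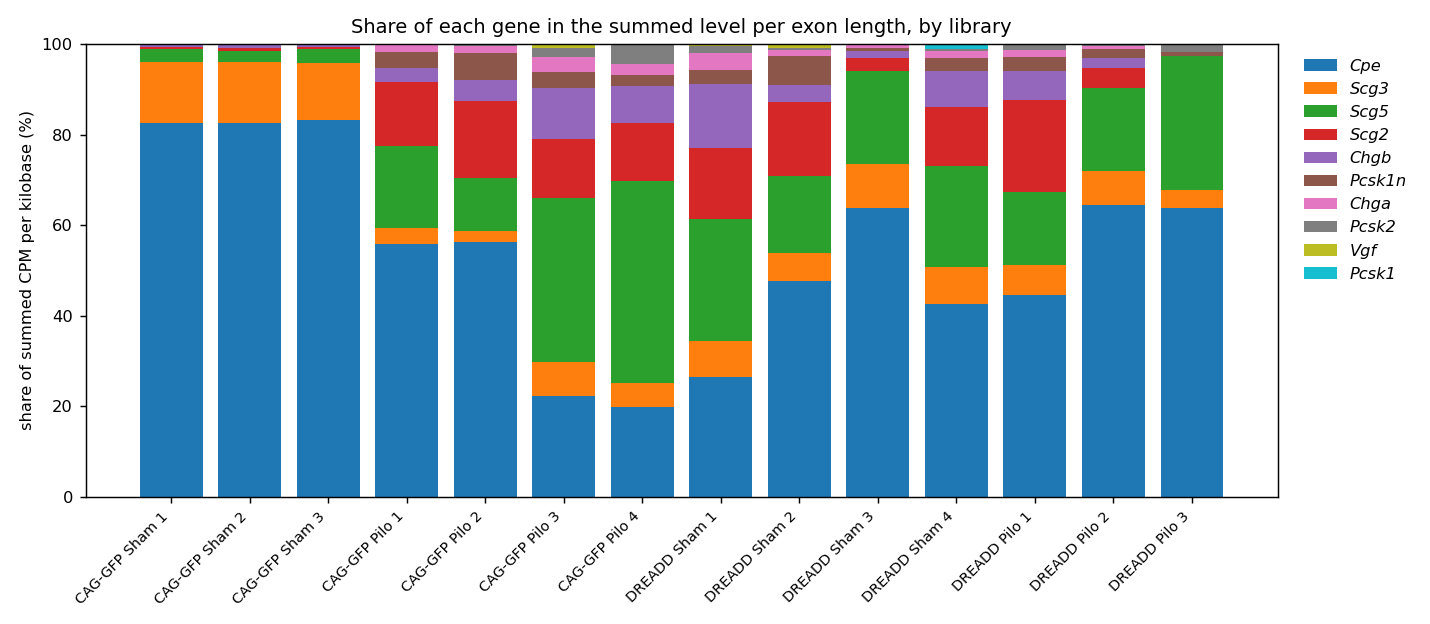
Share (%) of each gene in the summed CPM per kilobase of the 10 genes, with 1 bar per library and 1 colour per gene. Cpe and Scg3 fill 95.8% to 96.0% of the CAG-GFP Sham bars and 25.2% to 73.4% of the other bars.

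The levels by library are plotted for all 10 genes, and the sentences below give them by role.

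**Figure D3:**
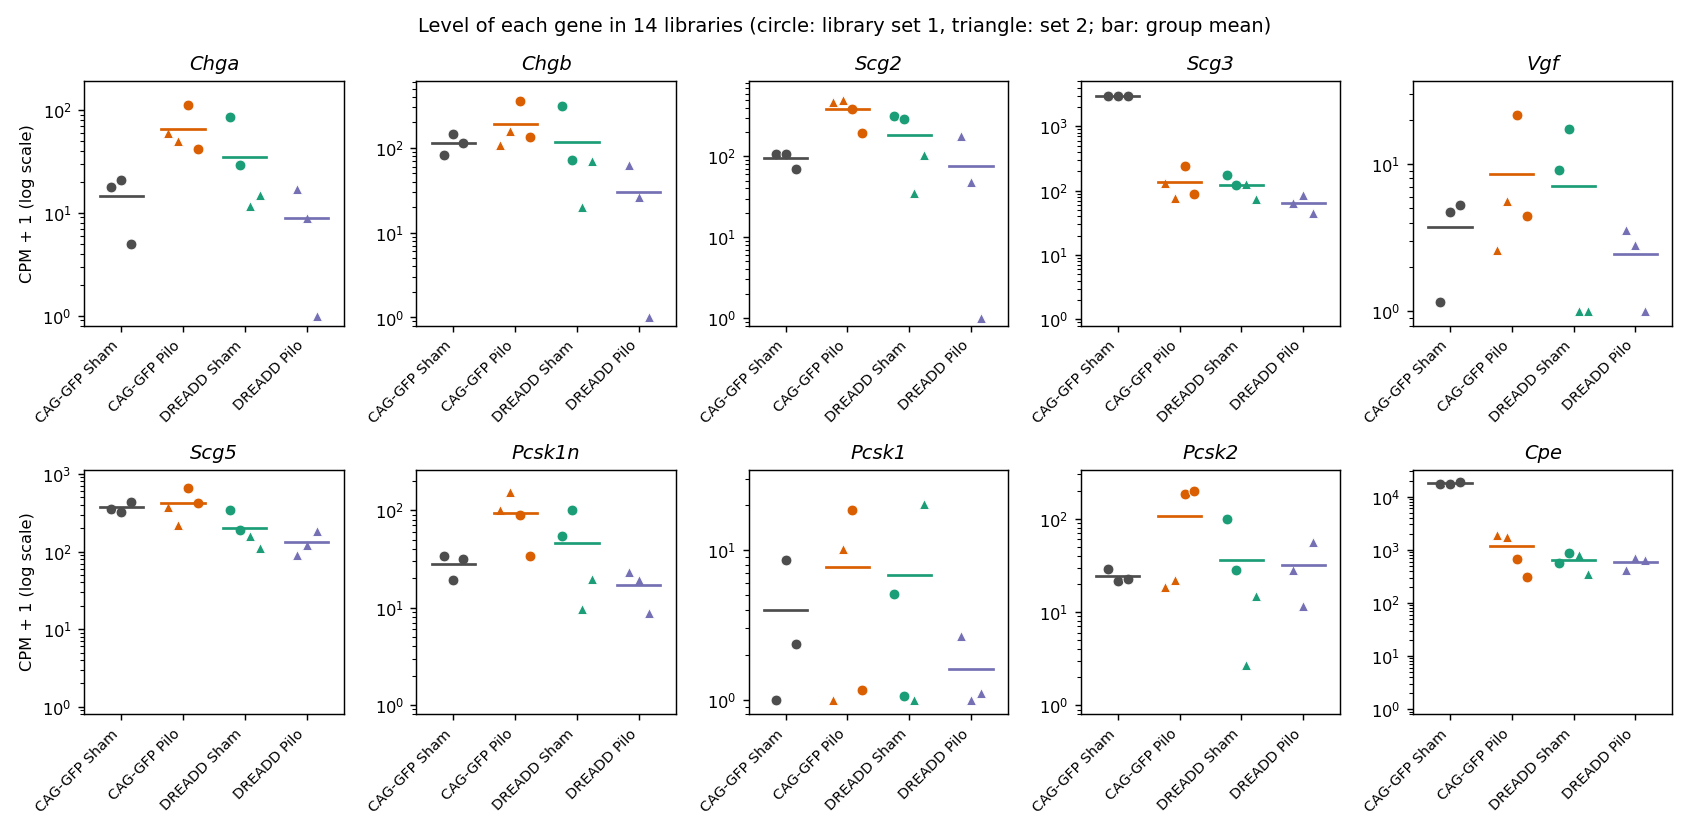
CPM + 1 on a log axis for each gene (panels) in the 14 libraries, by group on the horizontal axis, with circles for library set 1, triangles for set 2 and a bar at the group mean. The CAG-GFP Sham points stand above all others for Cpe and Scg3, and DREADD Pilo 3 lies at 0 CPM for Scg2, Chga, Chgb and Vgf.

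Among the granins, Scg3 (ENSMUSG00000032181.6, GRCm38 chromosome 9, 75643189 to 75684056, minus strand) encodes a sorting adaptor that links chromogranin A to the vesicle membrane. It measured 2980, 2960 and 2950 CPM in CAG-GFP Sham 1 to 3. It measured 131, 75.3, 238 and 88.9 CPM in CAG-GFP Pilo 1 to 4, 173, 120, 126 and 72.4 CPM in the DREADD sham libraries and 63.3, 85.9 and 44.3 CPM in those with pilocarpine. The CAG-GFP Sham libraries lay far above every other library, and the other 3 groups overlapped one another.

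Scg2 (ENSMUSG00000050711.7, chromosome 1, 79434669 to 79440120, minus strand) encodes the precursor of secretoneurin. With CAG-GFP the sham libraries measured 107, 105 and 68.7 CPM and the pilocarpine libraries 475, 503, 385 and 194 CPM, and with the DREADD the sham libraries measured 311, 289, 33.7 and 104 CPM and the pilocarpine libraries 180, 47.3 and 0 CPM. Each of the 4 CAG-GFP Pilo libraries exceeded every CAG-GFP Sham and every DREADD Pilo library. Within DREADD Sham the libraries of set 1 (311 and 289 CPM) and set 2 (33.7 and 104 CPM) lay apart.

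Chga (ENSMUSG00000021194.5, chromosome 12, 102554969 to 102565028, plus strand) encodes chromogranin A, the precursor of vasostatin and catestatin. The sham libraries with CAG-GFP measured 16.7, 19.9 and 3.98 CPM and the pilocarpine libraries 59, 48.3, 111 and 40.9 CPM, and with the DREADD the sham libraries measured 83.4, 28.2, 10.6 and 13.8 CPM and the pilocarpine libraries 16, 7.88 and 0 CPM. As for Scg2, CAG-GFP Pilo stood clear of CAG-GFP Sham and of DREADD Pilo, while DREADD Sham overlapped all groups.

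Chgb (ENSMUSG00000027350.8, chromosome 2, 132781278 to 132795079, plus strand) encodes chromogranin B, or secretogranin 1. With CAG-GFP the sham libraries measured 81.6, 144 and 112 CPM and the pilocarpine libraries 108, 156, 360 and 134 CPM, and with the DREADD the sham libraries measured 311, 70, 19 and 69.5 CPM and the pilocarpine libraries 62.1, 25 and 0 CPM. The sham and pilocarpine libraries with CAG-GFP overlapped, and every DREADD Pilo library was below every CAG-GFP Pilo library. Those last 2 groups did not overlap for 8.84% of tested genes in either direction. Vgf (ENSMUSG00000037428.10, chromosome 5, 137026392 to 137033351, plus strand), a growth factor inducible granin, was scarce, from 0 CPM in 3 libraries to 20.5 CPM in CAG-GFP Pilo 3, and its groups overlapped throughout.

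Of the convertase partners, Scg5 (ENSMUSG00000023236.7, chromosome 2, 113776362 to 113829121, minus strand) encodes 7B2, the chaperone of the convertase made from Pcsk2. The sham libraries with CAG-GFP measured 354, 322 and 434 CPM and the pilocarpine libraries 376, 220, 665 and 420 CPM, and with the DREADD the sham libraries measured 340, 187, 157 and 111 CPM and the pilocarpine libraries 88.6, 120 and 181 CPM. The DREADD Pilo libraries lay below all CAG-GFP Pilo libraries, 2 groups that did not overlap for 8.84% of tested genes in either direction. Pcsk1n (ENSMUSG00000039278.10, chromosome X, 7919822 to 7924410, plus strand) encodes proSAAS, an inhibitor of the convertase made from Pcsk1. With CAG-GFP the sham libraries measured 33, 18.3 and 30.5 CPM and the pilocarpine libraries 101, 153, 88 and 33.3 CPM, and with the DREADD the sham libraries measured 53.5, 99.1, 8.58 and 18.8 CPM and the pilocarpine libraries 22.2, 18.2 and 7.91 CPM. CAG-GFP Pilo was again clear of CAG-GFP Sham and of DREADD Pilo, the nearest CAG-GFP Sham library by 33 against 33.3 CPM.

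Among the enzymes, Cpe (ENSMUSG00000037852.7, chromosome 8, 64592542 to 64693054, minus strand) measured 17400, 17200 and 18800 CPM in CAG-GFP Sham. CAG-GFP Pilo had 1930, 1740, 678 and 310 CPM, DREADD Sham had 552, 874, 804 and 352 CPM, and DREADD Pilo had 408, 703 and 653 CPM. CAG-GFP Sham stood above all other libraries, and within CAG-GFP Pilo the libraries of set 2 (1930 and 1740 CPM) stood above those of set 1 (678 and 310 CPM).

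The convertases were far less abundant. Pcsk2 (ENSMUSG00000027419.9, chromosome 2, 143546156 to 143816285, plus strand), which makes the convertase PC2, measured 27.6, 20.3 and 21.7 CPM in CAG-GFP sham libraries, 17.4, 21.3, 184 and 196 CPM after pilocarpine, 97.2, 27.3, 1.69 and 13.7 CPM in DREADD sham libraries and 27.4, 10.6 and 54.7 CPM after pilocarpine. Only the set 1 libraries of CAG-GFP Pilo stood above the CAG-GFP Sham libraries there, the set 2 libraries being level with them. Its exons share 260 bases with Pcsk2os1 and 99 bases with Pcsk2os2 on the other strand, and without a stated strand setting reads from those stretches cannot be assigned. Pcsk1 (ENSMUSG00000021587.4, chromosome 13, 75089826 to 75134861, plus strand), which makes PC1/3, was at 0 in 4 libraries and reached 19.3 CPM in DREADD Sham 4, with every pair of groups overlapping. 

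The first comparison sets CAG-GFP Pilo against CAG-GFP Sham, with CNO in both groups. The cell type markers of these groups also differed, as given below. Scg3 and Cpe were lower after pilocarpine, and none of the other 8 genes passed the test. Scg3 had a mean of 2960 ± 15.6 CPM (SD, n = 3) in CAG-GFP Sham and 133 ± 73.6 CPM (SD, n = 4) in CAG-GFP Pilo. The latter was 22.2 times lower, or -4.48 ± 0.55 on the log2 scale (SE, adjusted p = 0.00474, edgeR's quasi-likelihood test over all genes). Cpe had 17800 ± 842 and 1160 ± 792 CPM in the same order, 15.3 times lower, with a log2 fold change of -3.93 ± 0.62 (adjusted p = 0.0244, same edgeR test). They were 2 of the 45 genes called, 0.241% of those tested, and since the selection used this comparison nothing is read from that count.

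The Cpe call was lost when any 1 of the 7 libraries was left out (edgeR adjusted p 0.0516 to 0.0967, fold changes -4.29 to -3.62), and the Scg3 call was kept each time (0.012 to 0.0466). Within library set 1, with 2 pilocarpine libraries, the log2 fold changes were -5.22 ± 0.41 for Cpe (edgeR adjusted p = 0.000857) and -4.23 ± 0.44 for Scg3 (edgeR adjusted p = 0.00298).

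In the same comparison Scg2, Chga and Pcsk1n had all 4 pilocarpine libraries above all 3 sham libraries, and Cpe and Scg3 had all 4 below. In all, 18.8% of tested genes had groups that did not overlap. The mean of Scg2 was 4.17 times higher (log2 2.06 ± 1.34, SE), that of Chga 4.79 times (2.26 ± 1.29) and that of Pcsk1n 3.45 times (1.79 ± 0.83). None of these passed the edgeR test, with adjusted p values of 0.454, 0.393 and 0.323. Pcsk2 had a log2 fold change of 2.18 ± 1.18 that did not pass (edgeR adjusted p = 0.366), and 3.01 ± 0.58 within set 1, where it passed (edgeR adjusted p = 0.0357). Its set 2 libraries, at 17.4 and 21.3 CPM, have no sham library of their own set beside them. Chgb (0.75 ± 1.25), Vgf (1.47 ± 2.30), Pcsk1 (1.16 ± 2.66) and Scg5 (0.18 ± 0.53) had fold changes smaller than 1 SE. The median log2 fold change was 1.32 over the 10 genes and 0.41 over all tested genes.

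**Figure D4:**
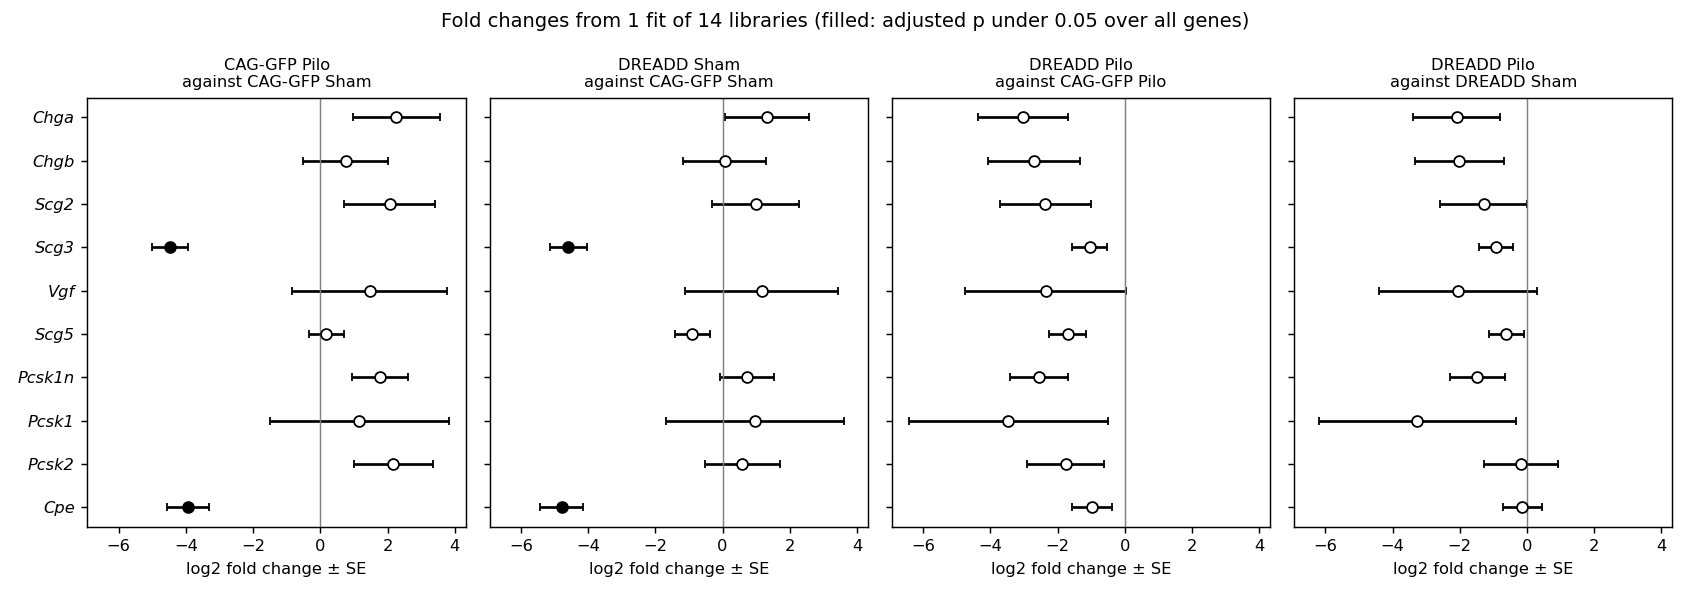
Log2 fold changes with their SE for the 10 genes in 4 comparisons, from 1 edgeR fit of all libraries, with filled points where the adjusted p over all genes is under 0.05. Cpe and Scg3 are filled in the 2 comparisons against CAG-GFP Sham, and all 10 points lie left of 0 in both comparisons of DREADD Pilo.

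The next comparison sets the DREADD without seizures against CAG-GFP without seizures, again with CNO in both. Cpe and Scg3 were lower in DREADD Sham by about as much as after seizures. The Cpe mean was 645 ± 240 CPM (SD, n = 4), 27.6 times under CAG-GFP Sham, with a log2 fold change of -4.79 ± 0.65 (edgeR adjusted p = 0.00675). The Scg3 mean was 123 ± 41.1 CPM, 24.1 times under it, with a log2 fold change of -4.59 ± 0.55 (edgeR adjusted p = 0.0061). The same 3 CAG-GFP Sham libraries serve both comparisons, so these values repeat the distance of those libraries from the rest and are not a separate observation. Both calls were kept when any 1 library was left out (edgeR adjusted p 0.0243 to 0.0461) and within set 1, where the fold changes were -4.66 ± 0.39 and -4.36 ± 0.45.

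The genes called made 0.3% of those tested (56 genes, 46 of them lower), and 21.7% of tested genes had groups that did not overlap. Cpe and Scg3 were the only 2 of the 10 genes in either count. The other 8 had log2 fold changes from -0.90 ± 0.52 (Scg5) to 1.33 ± 1.24 (Chga), none past the edgeR test, and that of Chgb (0.06 ± 1.23) changed sign with upper-quartile scaling.

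Markers of several cell types moved in the same comparisons as Cpe and Scg3. All 14 astrocyte markers had negative log2 fold changes in both comparisons against CAG-GFP Sham, with medians of -3.21 after pilocarpine and -3.16 in DREADD Sham, and 1 and 2 of them passed the edgeR test. Their sum ranged from 28700 to 30200 CPM in CAG-GFP Sham, against 828 to 6700 with pilocarpine, 2080 to 4980 with the DREADD alone and 1650 to 3680 with both, and no marker was at 0 except 5, Aqp4 among them, in CAG-GFP Pilo 4. Oligodendrocyte markers were the reverse. All 13 had positive log2 fold changes in both comparisons (medians 3.82 and 4.38, none past the edgeR test), and their sum was 621 to 724 CPM in CAG-GFP Sham, 1420 to 38700 in CAG-GFP Pilo and 19400 to 41600 in DREADD Sham. All 9 oligodendrocyte precursor markers were positive too (medians 5.65 and 5.24), with 3 called higher in each comparison and sums of 33.8 to 60.1 CPM in CAG-GFP Sham, 152 to 1200 in CAG-GFP Pilo and 488 to 1080 in DREADD Sham. Of 12 microglial markers 11 and 9 were positive (medians 1.38 and 1.03), none past the edgeR test, with sums of 3300 to 3550, 4570 to 11000 and 606 to 12300 CPM in the same order of groups.

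The gene most like Cpe over the 14 libraries was Mt1, a metallothionein, with a Pearson r of 0.976 in log2 CPM, and the one most like Scg3 was Dhrs7 (0.968), among 6931 genes compared. Among the other 9 genes, the closest to Cpe was Scg3 (0.919). Because the CAG-GFP Sham libraries form a cluster of their own, the values were also taken over the other 11 libraries. There Cpe and Scg3 had an r of 0.195 with each other, while Cpe had 0.813 with Mt1 and Scg3 had 0.736 with Dhrs7. The part of these cell types' RNA in the lower levels of Cpe and Scg3 was not tested.

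**Figure D5:**
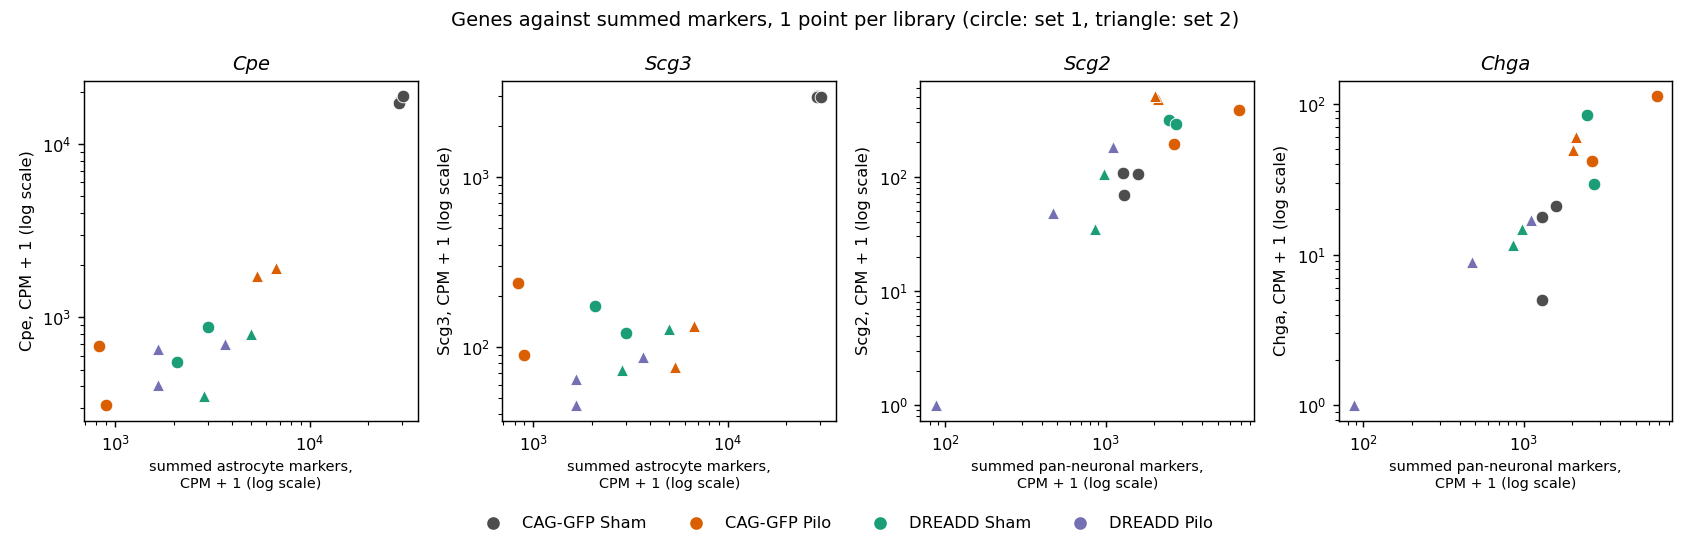
Cpe and Scg3 against the summed astrocyte markers and Scg2 and Chga against the summed pan-neuronal markers, all as CPM + 1 on log axes, with 1 point per library, colours for groups, circles for library set 1 and triangles for set 2. The 3 CAG-GFP Sham points sit alone at the upper right for Cpe and Scg3, and DREADD Pilo 3 sits at the lower left for Scg2 and Chga.

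The comparison of DREADD Pilo with CAG-GFP Pilo sets cells labelled as silenced against unsilenced cells, both after seizures. All 10 genes had lower fitted levels in DREADD Pilo, with a median log2 fold change of -2.36 against 0.28 over all tested genes, of which 41.6% were negative. None of them passed: edgeR called 0% of tested genes (0 genes, with 1001, or 5.36%, at an unadjusted p under 0.05), DESeq2 called 172 genes (0.984%) and limma voom 0, and neither called any of the 10. For 5 genes all 3 DREADD Pilo libraries lay below all 4 CAG-GFP Pilo libraries, namely Scg2, Chga, Chgb, Scg5 and Pcsk1n, where 8.84% of tested genes had groups that did not overlap in either direction.

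Chga had a mean of 7.95 ± 7.98 CPM in DREADD Pilo (SD, n = 3) against 64.8 ± 31.6 in CAG-GFP Pilo, a log2 fold change of -3.02 ± 1.34. Chgb stood at 29 ± 31.3 against 190 ± 115 CPM (-2.71 ± 1.36), and Scg2 at 75.7 ± 93.3 against 389 ± 140 CPM (-2.36 ± 1.36). The convertase partners Pcsk1n (-2.54 ± 0.86) and Scg5 (-1.69 ± 0.55) had smaller standard errors. These 5 genes had an adjusted p of 0.882 in edgeR. DREADD Pilo 3 was at 0 CPM for Chga, Chgb and Scg2, and without it the Scg2 fold change was -1.79 ± 0.87. With 1 library left out the fold changes ranged from -4.055 to -2.467 for Chga and from -3.948 to -2.152 for Chgb. Cpe (-0.99 ± 0.60) and Scg3 (-1.05 ± 0.51) overlapped between the groups, as did Vgf, Pcsk1 and Pcsk2. Within library set 2, with 2 CAG-GFP Pilo libraries, 9 of the 10 fold changes were negative and that of Pcsk2 was 0.70.

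Pan-neuronal markers moved the same way. All 10 were negative in this comparison (median -2.79) and positive in CAG-GFP Pilo against CAG-GFP Sham (median 1.63). Their sum was 2030 to 6800 CPM in CAG-GFP Pilo and 1290 to 1580 in its sham group, and 86.2 to 1110 in DREADD Pilo and 860 to 2750 in its sham group, with 2 markers at 0 in DREADD Sham 3 and 2 in DREADD Pilo 3. Of the 15 mature granule cell markers, 2 were positive and 13 negative in DREADD Pilo against CAG-GFP Pilo (median -1.45). In CAG-GFP Pilo against CAG-GFP Sham, 14 were positive and 1 negative (median 3.71), and none passed the edgeR test in either comparison. Several other lists went the other way in DREADD Pilo against CAG-GFP Pilo. All 11 ependymal and choroid plexus markers (median 4.73) and all 10 endothelial markers (3.57) were positive. So were 10 of 12 microglial (0.74) and 10 of 13 oligodendrocyte markers (0.50). Of the 14 astrocyte markers 10 were negative (-0.47). None of these passed the edgeR test. Chga was most like Syp, a synaptic vesicle gene (r = 0.958 over 14 libraries), and its nearest among the other 9 was Scg2 (0.958). Scg2 was most like Enc1, an actin-binding protein of neurons (0.969), and Chgb most like Stmn3, a neuronal microtubule regulator (0.972). Over the 11 libraries without CAG-GFP Sham these values were 0.971, 0.972 and 0.973, and Scg2 and Chgb had an r of 0.977 with each other. The libraries share depth and composition differences, so these are descriptions, and the part of neuronal RNA content in the granin levels was not tested.

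Of the other 5 genes, Scg5 was most like Tmem14a (r = 0.910), Pcsk2 most like Abr (0.859), Pcsk1n most like Chn1os1 (0.930), Vgf most like AI593442 (0.892) and Pcsk1, the scarcest, most like Bnip1 (0.694). Among the other 9 genes the closest to Pcsk1n was Scg2 (0.728), the closest to Vgf was Pcsk1n (0.715) and the closest to Pcsk1 was Chgb (0.419). The pair of a convertase and its chaperone, Pcsk2 and Scg5, had an r of 0.559 over 14 libraries, the highest of either with any of the other 9.

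Against DREADD Sham, DREADD Pilo was again lower in all 10 fitted values, with a median log2 fold change of -1.38 against 0.07 over all tested genes, but no gene separated the groups, against 6.61% of tested genes that did. The edgeR test called 0% of genes (0 genes, with 967, or 5.18%, at an unadjusted p under 0.05), DESeq2 called 158 genes (0.888%) and limma voom 0, with none of the 10 in any of them. The fold changes ran from -3.27 ± 2.93 (Pcsk1) to -0.14 ± 0.58 (Cpe), with -2.09 ± 1.28 for Chga and -2.01 ± 1.32 for Chgb. Within set 2, where DREADD Sham keeps 2 libraries, Scg2, Cpe, Pcsk1n, Pcsk2 and Vgf had fold changes above 0, from 0.02 to 7.50. The highest, 7.50 ± 3.09 for Vgf, rests on values at the floor. Vgf was at 0 in both of those DREADD Sham libraries and at 0 to 2.59 CPM in DREADD Pilo. DREADD Pilo 3, in which Scg2, Chga, Chgb and Vgf were all at 0, had the most ependymal and choroid plexus markers and the fewest pan-neuronal ones, and without it all 10 fold changes against DREADD Sham were still negative, with -0.73 ± 0.82 for Scg2, -1.55 ± 1.03 for Chga and -1.47 ± 0.96 for Chgb.

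The difference of the pilocarpine fold changes between DREADD and CAG-GFP cells (the interaction, DREADD minus CAG-GFP) was positive for 2 of the 10 genes. Cpe (3.80 ± 0.83, log2) and Scg3 (3.55 ± 0.71) were positive and the other 8 were negative, with -3.27 ± 1.17 for Pcsk1n and -4.35 ± 1.82 for Chga. The same 3 CAG-GFP Sham libraries enter this difference. Between DREADD Pilo and DREADD Sham the fold changes were -0.14 ± 0.58 for Cpe and -0.93 ± 0.51 for Scg3. The 2 positive values thus mostly repeat the distance of CAG-GFP Sham from the rest and are not a separate observation, whichever tool called them. The edgeR test called 0% of genes here (0 genes, with 2191, or 11.7%, at an unadjusted p under 0.05), and its adjusted p was 0.219 for both Cpe and Scg3. DESeq2 called 1461 genes (8.5%), among them Cpe, Scg3 and Pcsk1n, and limma voom 37 (0.198%), among them Cpe and Scg3. No library set held all 4 groups, so the difference has no value within a set. With the library set as a covariate it was 3.61 ± 0.58 for Scg3 (edgeR adjusted p = 0.047) and 3.89 ± 0.72 for Cpe (edgeR adjusted p = 0.0725), with 0.0589% of tested genes called.

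The other genes of the pathway were taken from 3 lists of processing enzymes, dense core vesicle machinery and peptide precursors, and edgeR called none of them in any comparison. Of 18 other processing enzymes 16 were tested, with 9 positive and 7 negative log2 fold changes in CAG-GFP Pilo against CAG-GFP Sham (median 0.20), 12 and 4 in DREADD Sham against CAG-GFP Sham (1.14), and 11 and 5 in DREADD Pilo against CAG-GFP Pilo (0.96). At an unadjusted p under 0.05 there were 2, 6 and 0 of them, against 15.4%, 18.6% and 5.36% of all tested genes. DESeq2 called 1, 4 and 0, against 12.6%, 15.2% and 0.984% of the genes to which it gave an adjusted p, and limma voom 0, 1 and 0, against 4.16%, 4.59% and 0%. Ctsl, a lysosomal protease that can also cut peptide precursors, was the most abundant, at 896 ± 123 CPM in CAG-GFP Sham (SD) and 541 ± 74 after pilocarpine with CAG-GFP, and at 333 ± 165 and 825 ± 211 without and with pilocarpine for the DREADD. Unlike the 10 genes, its DREADD Pilo mean was above that of CAG-GFP Pilo (log2 0.61 ± 0.46, edgeR adjusted p = 0.945). Qpct, which makes the pyroglutamate end of some peptides, was at 5.68 ± 4.93 CPM in CAG-GFP Sham and 76.7 ± 89.7 in CAG-GFP Pilo. It was at 82 ± 31.4 CPM in DREADD Sham and 62.8 ± 56.2 in DREADD Pilo. The CAG-GFP Pilo libraries ran from 22.5 to 211 CPM, and DREADD Pilo 3 had 1.45 CPM.

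The 20 genes of dense core vesicle formation and release were all tested. They had 15 positive and 5 negative fold changes in CAG-GFP Pilo against CAG-GFP Sham (median 1.12) and 3 positive and 17 negative in DREADD Pilo against CAG-GFP Pilo (median -1.47). At an unadjusted p under 0.05 there were 2 and 2 of them, against 15.4% and 5.36% of all tested genes, and DESeq2 called 2 and 1, against 12.6% and 0.984%. Against DREADD Sham, DREADD Pilo had 5 positive and 15 negative (median -0.93). Rab3a, a small GTPase of vesicle release, stood at 97.6 ± 16.7 CPM in CAG-GFP Sham and 383 ± 180 after pilocarpine with CAG-GFP, and at 191 ± 140 and 61.3 ± 36.9 CPM without and with pilocarpine for the DREADD. In the same order of groups Rab2a, which acts in vesicle maturation, stood at 312 ± 17.3, 260 ± 121, 176 ± 85.5 and 212 ± 81.7 CPM. 

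Of 20 peptide precursors 15 were tested, with 10 positive and 5 negative in CAG-GFP Pilo against CAG-GFP Sham (median 1.35) and 3 positive and 12 negative in DREADD Pilo against CAG-GFP Pilo (median -2.89). At an unadjusted p under 0.05 there were 1 and 2 of them, against 15.4% and 5.36% of all tested genes, DESeq2 called 1 and 1, against 12.6% and 0.984%, and limma voom 1 and 0, against 4.16% and 0%. Cck, the cholecystokinin precursor, varied from 35.3 to 1440 CPM within CAG-GFP Pilo and from 0 to 13.4 CPM in DREADD Pilo. Penk, the enkephalin precursor, was carried by single libraries, with 198 CPM in CAG-GFP Pilo 3, 602 CPM in DREADD Sham 2 and 549 CPM in DREADD Pilo 1, against 0 to 40.5 CPM in all others.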

How the data were processed

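Gene counts were measured in 14 SMART-Seq v4 libraries of sorted cells. The authors deposited 1 table of whole-number, unnormalised counts per gene. Bowtie2, edgeR, R 4.1.1, Subread and featureCounts are named in the submitters' processing notes, as is the build hg38, although every identifier is a mouse Ensembl identifier. For the strand setting, the annotation and the handling of reads with several matches, the sources used here give nothing. GENCODE M21 gave symbols to 42462 identifiers and left 884 without one. Promoter windows came from RefSeq.

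The genes, lists and tests were chosen with earlier results of these data known. Libraries were grouped by title. Levels are CPM over tested genes, scaled by TMM factors (0.683 to 0.713 in CAG-GFP Sham, 0.716 to 1.386 elsewhere). The test was that of edgeR 4.0.16 under R 4.3.3 (filterByExpr, quasi-likelihood F-test, 1 fit of 4 groups, Benjamini-Hochberg adjustment over 18676 genes, threshold 0.05). The biological coefficient of variation was 1.47. The script was tested on simulated counts with less spread than these data and without library sets. That run cannot show how the edgeR test behaves here. Every pair of libraries in a group differed by more than sampling noise, by unequal amounts. The chi-square per degree of freedom was 90.36 to 97.9 within CAG-GFP Sham and 102.6 between CAG-GFP Pilo 1 and 2. It was 215.8 to 1191 for the other pairs. The CAG-GFP Sham libraries were thus the most alike, and whether they are separate animals is not known. The genes named beyond the 10 were, per pathway list, those past the test or otherwise the 2 most abundant, and for each of the 10 the gene with the highest Pearson r of log2 CPM (prior count 2, mean of at least 20 CPM). Alternatives were other scalings, no filter, DESeq2 1.42.0, limma voom (limma 3.58.1), the library set as a covariate or by itself, the replicate number as a block, only the compared groups, and each library left out. Same-numbered libraries did not deviate together (1 of 19 pairs over 0.1, range -0.381 to 0.115).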

Additional observations from a re-analysis of the deposited data

How the results depend on the processing

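Over 430 fold changes of the 10 genes under alternatives other than left-out libraries, 16 turned sign and 72 moved by over 1.5 times, and over 420 with 1 library left out, 11 turned sign and 47 moved by over 1.5 times. Scg3 kept its direction in all of them, and Cpe in all but DREADD Pilo against DREADD Sham. The cause of each change was not tested. The genes called in CAG-GFP Pilo against CAG-GFP Sham (45) were 2203 with DESeq2, 777 with limma voom, 89 with the library set as a covariate, 471 within set 1, 168 with only the compared groups, and 3 to 15 with 1 library left out, when 1 of the 10 genes was called. Those in DREADD Sham against CAG-GFP Sham (56) were 86 with upper-quartile factors, 2655 with DESeq2, 858 with limma voom, 146 with the set as a covariate, 530 within set 1, 647 with only the compared groups, and 6 to 12 with 1 library left out. In DREADD Pilo against CAG-GFP Pilo DESeq2 called 172, and against DREADD Sham DESeq2 called 158 and the set covariate 2. For the interaction 3 genes were called without the filter, 1461 with DESeq2, 37 with limma voom, 11 with the set covariate, and 0 to 1 with 1 library left out, the 1 without DREADD Pilo 3. Of the 10 genes, DESeq2 then called 3, limma voom 2 and the set covariate 1 (Scg3).

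The labels do not say whether replicate numbers pair the libraries. Same-numbered libraries of CAG-GFP Pilo and DREADD Sham always lay in opposite library sets, so the correlation of their deviations cannot exclude pairing. With the replicate block, 1 gene was called in CAG-GFP Pilo against CAG-GFP Sham and 0 in DREADD Sham against CAG-GFP Sham, 0 of them among the 10 genes (edgeR's adjusted p was 0.0812 for both Cpe and Scg3 in the first and 0.0557 for both in the second).

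Signs turned as follows on the log2 scale. In DREADD Sham against CAG-GFP Sham, Chgb was -0.11 with upper-quartile factors, -0.26 with limma voom and -0.38 with the block, Vgf -1.38 with limma voom, and Pcsk1 -2.41 with the block and -0.55 within set 1. With 1 library left out the ranges there were -1.09 to 0.42 for Chgb, -0.001 to 1.67 for Vgf, -1.10 to 3.10 for Pcsk1, -0.71 to 0.99 for Pcsk2 and -0.015 to 1.07 for Pcsk1n, and in CAG-GFP Pilo against CAG-GFP Sham -0.13 to 0.36 for Scg5. In DREADD Pilo against CAG-GFP Pilo, Pcsk2 was 0.60 with the set covariate and 0.70 within set 2. Against DREADD Sham, Vgf was 0.13 with limma voom, 3.47 with the set covariate and 7.50 within set 2, Pcsk2 2.07 and 2.01 with the latter 2, and Scg2 0.13, Cpe 0.021 and Pcsk1n 0.23 within set 2. With 1 library left out the ranges were -0.93 to 1.12 for Pcsk2 and -0.34 to 0.052 for Cpe.

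Scaling by library total alone put the Cpe mean in CAG-GFP Sham at 12500 CPM and that of Scg3 at 2080 CPM, against 1230 and 153 CPM in CAG-GFP Pilo. It moved 7 of 40 group means by over 1 SD, all in CAG-GFP Sham. The median log2 fold change of all genes in CAG-GFP Pilo against CAG-GFP Sham was 0.41 with TMM, 0.25 with upper-quartile factors and -0.29 with limma voom. At depths of 10613291 to 38614639 counts, Vgf was not detected in 3 libraries and Pcsk1 in 4.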

Other observations

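The library sets divided the 10 genes within DREADD Sham. In 7 of them (Scg2, Scg5, Chga, Chgb, Vgf, Pcsk2 and Pcsk1n) both set 1 libraries lay above both set 2 libraries, with 70 against 69.5 CPM for the nearest pair of Chgb and 289 against 104 CPM for that of Scg2. Of all tested genes, 26.9% did so. In CAG-GFP Pilo Scg5 and Pcsk2 did so while Cpe, Scg2 and Pcsk1n lay lower in set 1 than in set 2, against 15.8% and 23.0% of all tested genes. Cck divided the same way in DREADD Sham, with 387 and 222 CPM in set 1 and 0 and 5.14 CPM in set 2, a gene chosen here after its values were seen.

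Pcsk6, a convertase of the constitutive pathway that was also chosen after its values were seen, was also highest in CAG-GFP Sham. It measured 72.1, 80 and 102 CPM in CAG-GFP Sham and 0 to 43.4 CPM in the other 11 libraries, and it did not pass the edgeR test in any comparison.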
